A study of Mus musculus with 6 samples.

Results

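Ly86, Cd180, Ly96, the Toll-like receptor genes Tlr1, Tlr2, Tlr4, Tlr6, Tlr7 and Tlr9, and the adaptor gene Myd88 were examined in mouse leukaemia cells with and without the phosphatase gene Dusp6. These 10 genes were put together with earlier results of the same Dusp6 comparison in view, so their differences are described and not offered as independent evidence. They are 10 of 19938 genes that could be measured by a probe set, a group of probes summarised as 1 signal, with exactly 1 gene symbol. Where a gene had several probe sets, the one with the highest mean signal over the 6 arrays was to be used; each of the 10 genes had 1 probe set, so nothing was chosen by signal.

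Pre-B cells transformed with BCR-ABL1, the kinase made by the Philadelphia translocation in acute lymphoblastic leukaemia, were compared between 2 genotypes. The groups were Dusp6 WT (3 arrays) and Dusp6 KO (3 arrays), and all cells carried BCR-ABL1 on the mixed strain background C57Bl/6-SV129j. Total RNA was hybridised to Affymetrix arrays, and values are RMA signals on a log2 scale. The labels give no age, no time after transformation, no description of the deleted part of Dusp6, and no word on whether the 3 arrays of a group stand for different mice or cultures. The errors and p-values therefore cover the spread among these samples alone, and that spread may be technical.

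Toll-like receptors are membrane proteins that recognise microbial lipids, lipoproteins and nucleic acids. Tlr4 reads lipopolysaccharide at the cell surface together with MD-2, the product of Ly96. Tlr1 and Tlr6 each pair with Tlr2 to read lipopeptides, and Tlr7 and Tlr9 read RNA and DNA in endosomes. Cd180, also called RP105, is a relative of Tlr4 that lacks the intracellular signalling domain of the family. It reaches the surface with MD-1, the product of Ly86, much as Tlr4 does with MD-2. B cells carry the Cd180 complex, where it promotes activation, while in macrophages and dendritic cells it is known to restrain Tlr4. Myd88 is the adaptor through which most of the receptors signal to NF-kB.

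Dusp6, which removes activating phosphates from ERK, followed the genotype labels. Its log2 signal was 12.36, 12.46 and 12.49 on the wild-type arrays and 9.04, 9.06 and 9.15 on the knockout arrays, a difference of −3.36 ± 0.05 (SE; limma adjusted p = 4.345e-10 over all genes). Over all probe sets, pairs of arrays correlated at 0.996 to 0.998 within a genotype and at 0.987 to 0.989 between genotypes. The cells had strong signal for most of 12 measured markers of B cell precursors. Their wild-type means ran from 9.39 to 14.52, with Cd79a at 13.88 and Igll1 at 14.52. The lowest, Rag2 (9.39) and Rag1 (10.03), lay below the upper quartile of all probe sets on every array. Within that list 6 genes fell in the knockout cells and 1 rose (50% and 8.33%, against 10.2% and 9.66% of all genes). The DNA polymerase gene Dntt (−1.42), the recombinase gene Rag2 (−0.43) and the receptor gene Il7r (−0.31) fell the most. Blnk, Vpreb1 and Vpreb2 also fell. Rag1, which encodes the partner of Rag2, was the one that rose (0.20, limma adjusted p = 0.027). Blnk, Vpreb1, Vpreb2 and Rag1 were named after their values were seen. In bulk RNA, fewer cells of a type and less RNA per cell cannot be told apart.

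The difference of all 10 genes went up in 8 and down in 2, and its size ranged from 0.07 to 4.31 on the log2 scale. The criterion applied to every gene was an adjusted p below 0.05 in limma, a linear model with pooled variance information, corrected by the Benjamini-Hochberg method over all genes. By it 6 of the 10 were called higher in knockout cells and 2 lower, where over all genes 9.66% were called higher and 10.2% lower. The 3 knockout and 3 wild-type values did not overlap in 8 of the 10, against 35.7% of all genes. The median difference was 0.24 for the 10 genes and 0.0018 for all genes, and 2 of the 10 passed 2-fold, against 258 of 19938. Because the genes were proposed with this comparison in view, these counts say nothing beyond what each gene shows.

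**Figure D1:**
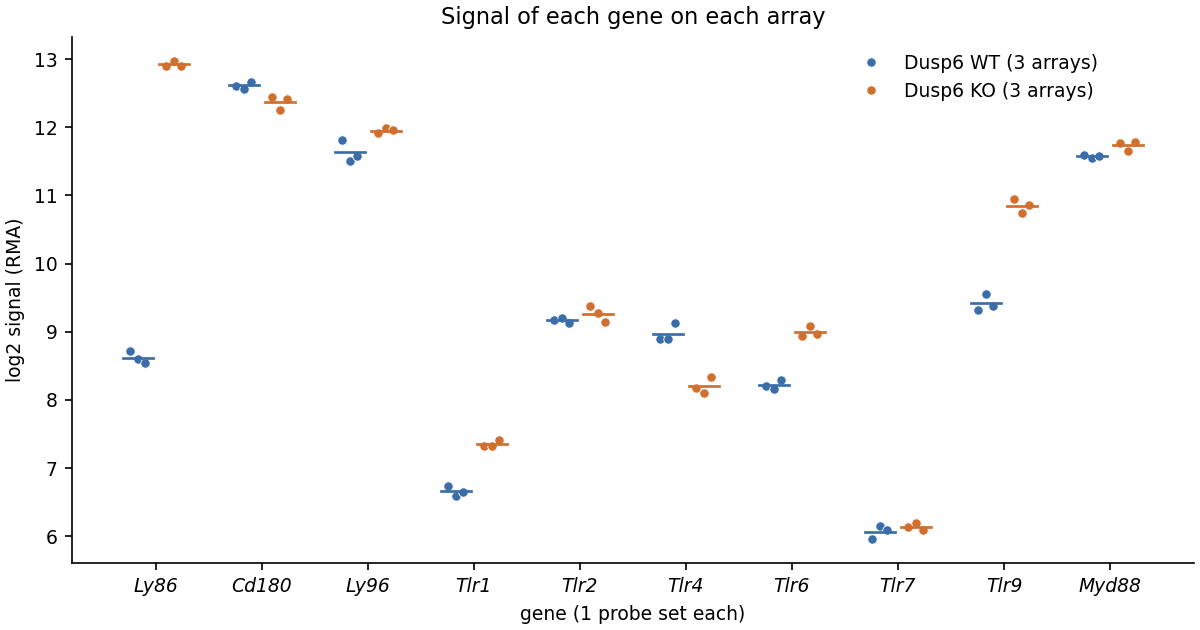
Log2 RMA signal (vertical axis) of each of the 10 genes on the 3 Dusp6 WT arrays (blue) and the 3 Dusp6 KO arrays (orange); each point is 1 array and each bar a group mean. Ly86 moved from 8.54 to 8.72 on the wild-type arrays to 12.89 to 12.98 on the knockout arrays, and Tlr2 and Tlr7 overlapped between genotypes. Heights of different genes come from different probes and cannot be set against each other.

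The upstream sequences of Ly86, Cd180 and Tlr9 are shown because these genes include the 2 that passed 2-fold and the surface partner of the first. Each sequence is the 250 bases before the most upstream annotated start, 5′ to 3′ on the strand of the gene, from RefSeq on GRCm38.p6. The capitals mark matches to 7 short motifs that were searched on both strands: GAGGAAG (PU.1), CCGGAAG (ETS), TGANTCA (AP-1), ATGCAAAT (octamer), GGANNTTCC (NF-kB), GAAANNGAA (interferon-stimulated response element) and CCCNNGGGA (EBF1).
Ly86 at chr13:37345095-37345344, plus strand: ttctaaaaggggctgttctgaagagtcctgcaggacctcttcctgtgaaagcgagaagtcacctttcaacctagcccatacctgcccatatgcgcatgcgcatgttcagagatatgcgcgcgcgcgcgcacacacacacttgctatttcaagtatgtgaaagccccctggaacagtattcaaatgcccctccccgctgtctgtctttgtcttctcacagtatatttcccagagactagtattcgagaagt
Cd180 at chr13:102693297-102693546, plus strand: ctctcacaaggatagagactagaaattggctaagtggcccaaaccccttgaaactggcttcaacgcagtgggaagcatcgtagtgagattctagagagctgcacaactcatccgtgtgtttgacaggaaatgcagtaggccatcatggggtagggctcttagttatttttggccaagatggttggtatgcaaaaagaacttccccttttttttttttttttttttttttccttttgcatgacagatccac
Tlr9 at chr9:106222348-106222597, plus strand: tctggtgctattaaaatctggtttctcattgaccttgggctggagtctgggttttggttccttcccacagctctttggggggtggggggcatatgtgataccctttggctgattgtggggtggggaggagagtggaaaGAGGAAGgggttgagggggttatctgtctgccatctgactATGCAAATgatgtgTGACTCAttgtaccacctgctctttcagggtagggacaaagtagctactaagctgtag

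The Tlr9 window held 3 matches, none overlapping another: GAGGAAG at 112 to 106 bases before the start, ATGCAAAT at 72 to 65 and TGACTCA at 58 to 52. Over 32851 RefSeq windows of the same length, 10.6% held the PU.1 letters, 1.6% the octamer and 6.75% the AP-1 letters; the shares of the other motifs were 6.91% (ETS), 3.59% (NF-kB), 7.13% (interferon element) and 5.6% (EBF1). The Ly86 and Cd180 windows held none of the 7 motifs. The share of G and C was 50% in Ly86, 42.8% in Cd180 and 50.4% in Tlr9. The table held entries for 7 of the 10 genes; Ly96, Tlr4 and Tlr7 had none. In the 4 others, GAGGAAG lay at 23 to 17 bases before the first listed start of Tlr1, CCGGAAG at 207 to 201 before its second start, and GAAAGCGAA at 40 to 32 before the start of Myd88. The second listed start of Tlr6 had 2 overlapping matches to the interferon element on the opposite strand, and Tlr2 had no match. Such matches are letters in a window and say nothing about binding.

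Ly86 separated the genotypes further than any other of these genes. Its log2 signal was 8.72, 8.60 and 8.54 in wild-type cells and 12.89, 12.98 and 12.91 in knockout cells. No value came near the other group: the lowest knockout array lay 4.17 log2 units above the highest wild-type array, while the SD within a group was 0.09 in wild type and 0.05 in knockout (n = 3 each). The difference of 4.31 ± 0.05 (SE, 95% interval 4.18 to 4.43) corresponds to 19.8-fold, and 99.98% of all genes had a smaller absolute difference. It ranged from 4.27 to 4.36 over 14 alternative settings. Both ends came from fits that left out 1 array, so the range restates the spread within the groups. MD-1, its product, is a secreted glycoprotein that binds to Cd180 and is known to be needed for its surface display.

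Cd180, whose product carries MD-1 at the surface, did not follow its partner. It read 12.61, 12.57 and 12.67 in wild-type cells and 12.44, 12.25 and 12.41 in knockout cells. The knockout values lay below all wild-type values, with a gap of 0.12, and the SDs were 0.05 and 0.10. The difference was −0.24 ± 0.06 (SE, 95% interval −0.37 to −0.11), or 1.18-fold lower. Cd180 lost its call without wild-type replicate 3, where the difference was −0.22, and when every probe set of the array was tested. Both partners are genes of chromosome 13, at separate places: the 6 nearest measured protein-coding genes of each did not overlap.

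Ly96 and Tlr4, the corresponding pair for lipopolysaccharide, went in opposite directions. Ly96, whose product MD-2 holds the lipid part of lipopolysaccharide, read 11.82, 11.50 and 11.58 in wild-type cells and 11.91, 11.98 and 11.96 in knockout cells. The knockout arrays were all higher, but wild-type replicate 1 lay within 0.09 of them. The difference was 0.32 ± 0.08 (SE, 95% interval 0.15 to 0.49). Ly96 lost its call without wild-type replicate 2 (0.25), without wild-type replicate 3 (0.29), without knockout replicate 2 (0.30), and when every probe set was tested.

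Tlr4, the signalling receptor for lipopolysaccharide, read 8.89, 8.89 and 9.13 in wild-type cells and 8.18, 8.11 and 8.33 in knockout cells. The groups were 0.56 apart, with wild-type replicate 3 and knockout replicate 3 the higher of their groups. The difference was −0.76 ± 0.08 (SE, 95% interval −0.94 to −0.59), or 1.70-fold lower. It stayed between −0.83 and −0.68 over the alternative settings in which Tlr4 was tested, both ends from fits that left out 1 array. Of the 4 genes that make up the 2 lipid-binding receptor complexes, the 2 soluble partners, Ly86 and Ly96, were thus higher in knockout cells. The 2 receptors, Cd180 and Tlr4, were lower. The sizes were unlike: 4.31 for Ly86, 0.32 for Ly96, −0.24 for Cd180 and −0.76 for Tlr4. Ly96 and Cd180 lost their calls in 4 and 2 of 14 alternative settings.

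**Figure D2:**
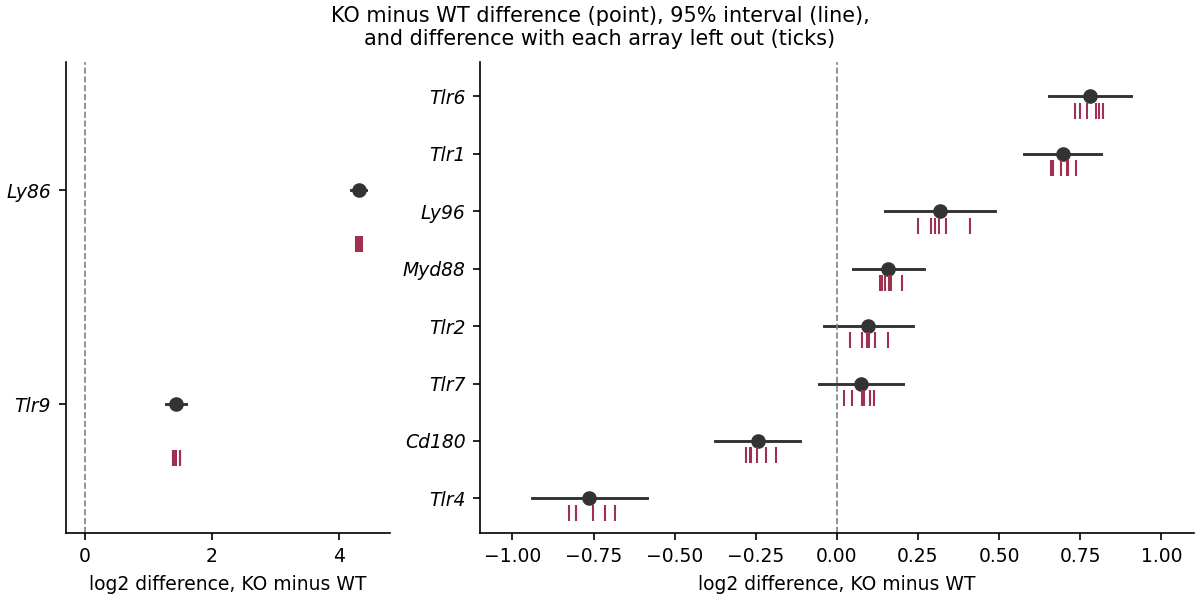
Log2 difference, knockout minus wild type (horizontal axis, with a wider scale in the left panel), of the 10 genes. Points are differences of group means, lines 95% intervals from limma, and ticks the difference with each 1 of the 6 arrays left out; Ly86 lies at 4.31, Tlr9 at 1.44, and the intervals of Tlr2 and Tlr7 include 0.

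Tlr1 and Tlr6, the receptors that pair with Tlr2, were both higher by a like amount. Tlr6, which serves diacylated lipopeptides, read 8.20, 8.15 and 8.30 in wild-type cells and 8.94, 9.09 and 8.96 in knockout cells. Tlr1, which serves triacylated lipopeptides, read 6.74, 6.59 and 6.65 in wild-type cells and 7.33, 7.32 and 7.42 in knockout cells. In neither gene did the groups come closer than 0.58. The differences were 0.78 ± 0.06 for Tlr6 and 0.70 ± 0.05 for Tlr1 (SE), and their 95% intervals (0.65 to 0.91 and 0.58 to 0.81) overlapped.

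The wild-type signal of Tlr1 lay below the lower quartile of all probe sets on an array, which ran from 7.12 to 7.16, and its knockout signal just above it; no detection calls were used here, so the size of its difference is less certain. Tlr1 and Tlr6 are close paralogs that lie side by side on chromosome 5, and whether a probe set of one also reads the other was not tested. Klf3, a transcription factor gene on the Tlr1 side of the pair, rose by 0.23 ± 0.05 (SE, limma adjusted p = 0.011), while Fam114a1 on the Tlr6 side was not called (0.13, adjusted p = 0.13).

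Tlr2, the shared partner of both, did not separate the genotypes. It read 9.17, 9.21 and 9.13 in wild-type cells and 9.38, 9.27 and 9.15 in knockout cells. Knockout replicate 3 lay within the wild-type values. The difference was 0.10 ± 0.06 (SE), and its 95% interval of −0.04 to 0.23 leaves room for a change of up to that size. Tlr1 and Tlr6, the subunits that differ by lipopeptide, were higher where Tlr2, the subunit common to both, was not called. Their 95% intervals lay above that of Tlr2. This describes genes chosen with the comparison in view and is not a test that they differ from Tlr2.

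The endosomal receptors Tlr9 and Tlr7 differed from each other. Tlr9, the receptor for unmethylated CpG DNA, read 9.32, 9.55 and 9.38 in wild-type cells and 10.95, 10.74 and 10.87 in knockout cells. The lowest knockout array lay 1.19 above the highest wild-type array, against SDs of 0.12 and 0.11. The difference was 1.44 ± 0.07 (SE, 95% interval 1.27 to 1.60), or 2.70-fold. It ranged from 1.39 to 1.5 over the alternative settings, both ends from fits that left out 1 array.

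Tlr7, the receptor for single-stranded RNA, read 5.96, 6.15 and 6.09 in wild-type cells and 6.14, 6.20 and 6.08 in knockout cells. All 6 values were below the lower quartile of the arrays, and the groups overlapped. The difference was 0.07 ± 0.06 (SE, 95% interval −0.05 to 0.20). Tlr8, its neighbour on the X chromosome, was likewise dim (a mean of 6.52 in knockout cells) and not called, so no change of either was detectable on these arrays.

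Myd88 was higher by the least of the genes that were called. Its log2 signal was 11.60, 11.55 and 11.58 in wild-type cells and 11.77, 11.65 and 11.78 in knockout cells. The groups were separated by 0.05, with knockout replicate 2 closest to the wild-type arrays. The difference was 0.16 ± 0.05 (SE, 95% interval 0.05 to 0.27), or 1.12-fold. The call did not hold in 8 of 14 alternative settings, among them the fit with the replicate number as a block and the one centring each array on its median. It was also lost without wild-type replicate 1 (0.17), wild-type replicate 2 (0.15), wild-type replicate 3 (0.16), knockout replicate 1 (0.14) or knockout replicate 3 (0.13). The 95% intervals of Myd88 and Ly96 overlapped.

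Other genes of the pathway, and innate sensors of other families, were taken from lists written by function. The lists were not made by how genes moved, though earlier results were known. Together they held 104 genes, of which 32 rose and 7 fell in the knockout cells (limma, adjusted p below 0.05). That is 30.8% and 6.73%, against 9.66% and 10.2% of all genes, and the median difference was 0.046. The 15 sensors of other families held 9 of the 32 that rose and 1 of the 7 that fell. These shares are therefore not those of the Toll-like receptor pathway alone. With 1 array left out, the counts over all lists were 24 to 28 that rose and 4 to 7 that fell. The number that fell was 4 without wild-type replicate 1 and without knockout replicate 3.

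**Figure D3:**
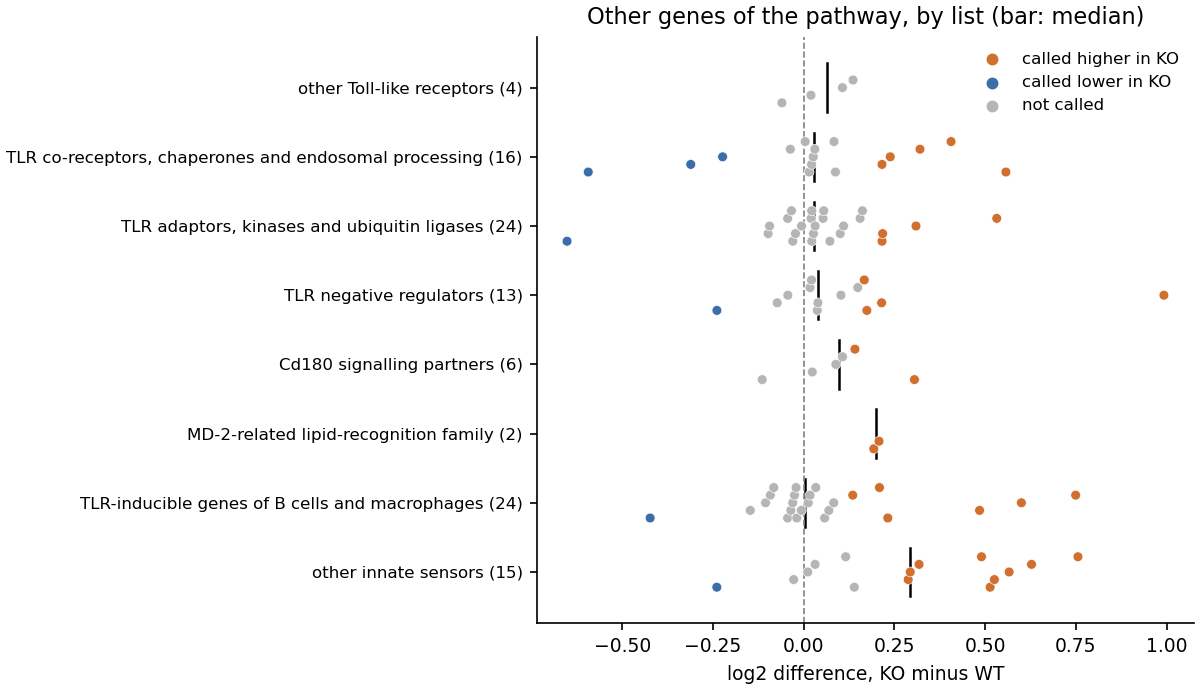
Log2 difference, knockout minus wild type (horizontal axis), of other genes of the pathway and of innate sensors of other families. Genes are grouped by list with the number measured in brackets. Each point is 1 gene, orange where called higher and blue where called lower in knockout cells, and bars are medians; the median of the other innate sensors lies at 0.29 and those of the remaining lists between 0.0029 and 0.20.

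None of the 4 other measured Toll-like receptors was called by limma (1 had an unadjusted p under 0.05, and 0 were called in any alternative setting). Tlr13, a receptor for bacterial ribosomal RNA, differed by 0.14 ± 0.06 (SE, adjusted p = 0.15) and Tlr12, a receptor for profilin, by 0.11 ± 0.05 (adjusted p = 0.16). Tlr3 and Tlr8 overlapped between the groups. Tlr5 and Tlr11 were not analysed here.

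Genes that deliver ligands to the receptors or move and cut the receptors themselves numbered 16, of which 5 rose and 3 fell. That is 31.2% and 18.8%, where 9.66% and 10.2% of all genes were called. Slc15a3, an endosomal peptide transporter, rose from 9.05, 9.06 and 9.19 to 9.66, 9.54 and 9.77 (0.56 ± 0.07, SE; limma adjusted p = 0.00023). The scavenger receptor gene Cd36, dim in wild-type cells (a mean of 6.87, under the lower quartile), rose by 0.41, the protease gene Ctss by 0.32 and the chaperone gene Cnpy4 by 0.24. Unc93b1, the chaperone that carries Tlr7 and Tlr9 to endosomes, rose by 0.22 ± 0.05 (SE; adjusted p = 0.010). Unc93b1 and Cnpy3 lay outside the rule for named genes and were picked after their values were seen.

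Lgmn, the asparagine endopeptidase that cuts the ectodomain of Tlr9, fell from 11.08, 11.08 and 11.01 to 10.45, 10.44 and 10.51 (−0.59 ± 0.04, SE; limma adjusted p = 1.1e-05). The protease gene Ctsl fell by 0.31 but lost its call without any of wild-type replicates 1 and 3 and knockout replicates 2 and 3 (adjusted p from 0.051 to 0.112). Cnpy3, a chaperone gene of surface and endosomal receptors, fell by 0.22 and lost its call without wild-type replicates 1 or 2 or knockout replicates 2 or 3 (adjusted p from 0.070 to 0.075). The number that fell was 1 without wild-type replicate 1, without knockout replicate 2 and without knockout replicate 3. Cd14, the co-receptor of Tlr4, differed by 0.026 and overlapped between the groups, but both its means (7.08 and 7.11) were under the lower quartile. The chaperone gene Hsp90b1 was not called (0.087).

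Among 24 adaptors, kinases and ubiquitin ligases below the receptors, 4 rose and 1 fell (16.7% and 4.17%), which together is near the 19.8% called among all genes. Tirap, the bridge between Myd88 and the receptors Tlr2 and Tlr4, fell from 10.51, 10.32 and 10.35 to 9.71, 9.72 and 9.79. Every knockout array was at least 0.53 below the wild-type arrays, and the difference was −0.65 ± 0.06 (SE; limma adjusted p = 3e-05). The kinase genes Map3k8 and Tbk1 rose by 0.53 and 0.22 and the transcription factor gene Irf7 by 0.31. Ticam2, an adaptor of Tlr4, rose by 0.22 but lost its call without wild-type replicates 1 or 2 or knockout replicates 2 or 3 (adjusted p from 0.070 to 0.089). The other 19 were not called, among them Irak1, Traf6 and Map3k7. With limma's trend and robust options 7 rose and 2 fell.

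Of 13 negative regulators of the pathway, 4 rose and 1 fell (30.8% and 7.69%, against 9.66% and 10.2% of all genes). Irak3, an inactive kinase that holds back signalling from Myd88, rose from 10.78, 10.65 and 10.69 to 11.69, 11.68 and 11.71. The groups were 0.91 apart, and the difference of 0.99 ± 0.05 (SE; limma adjusted p = 4.8e-07) was the largest of the list. Dok3, an adaptor, rose by 0.21, Nlrc5 by 0.17 and the ribonuclease gene Zc3h12a by 0.17, while Tnfaip3, a ubiquitin-editing enzyme, fell by 0.24. Nlrc5 lost its call without wild-type replicates 1 or 3 or knockout replicates 1 or 2 (adjusted p from 0.053 to 0.093), and Zc3h12a without wild-type replicates 1 or 2 or knockout replicate 3 (adjusted p from 0.053 to 0.069). The number that rose was 2 without wild-type replicate 1.

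Signalling genes known to act below Cd180 gave 2 that rose and 0 that fell of 6 (limma). That is 33.3% and 0%, against 9.66% and 10.2% of all genes. Over the alternative settings 1 to 3 were called higher and 0 to 1 lower. Plcg2, a phospholipase of B cell receptor signalling, rose by 0.31 ± 0.04 (SE; adjusted p = 0.00091). Vav2, an exchange factor, rose by 0.14, and it lost its call when any 1 array was left out (adjusted p from 0.053 to 0.125), with the replicate block and with median centring. Btk and Prkcb were not called, and Lyn was not analysed here. Npc2 and Gm2a, lysosomal lipid-binding proteins of the same fold family as MD-1 and MD-2, rose by 0.21 and 0.19. Npc2 lost its call without wild-type replicates 2 or 3 or knockout replicate 3 (adjusted p from 0.055 to 0.064).

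Of 24 genes known to be induced through Toll-like receptors, 6 rose and 1 fell, and the median difference was 0.0029. The shares were 25% and 4.17%, against 9.66% and 10.2% of all genes. The feedback inhibitor gene Socs3 rose by 0.75 (0.44 when its probe sets were averaged), the NF-kB regulator gene Nfkbiz by 0.60 and the cytokine gene Tnf by 0.48. The costimulatory gene Cd86 and the adhesion gene Cd44 rose by 0.23 and 0.21, and Plek, a substrate of protein kinase C, fell by 0.42. Cd86 lost its call in 5 of the 6 fits that left out an array, all but the one without knockout replicate 2 (adjusted p from 0.071 to 0.102), its difference was 0.15 without knockout replicate 1, and both its means, 6.84 and 7.07, were under the lower quartile. Cd44 lost its call without wild-type replicate 2 or knockout replicates 2 or 3 (adjusted p from 0.061 to 0.065). The number that rose was 3 without wild-type replicate 2 and without knockout replicate 3. Il6, Il1b, Cxcl10 and Nfkbia were not called. Both means of Il6 (4.66 and 4.67) were under the lower quartile, so its lack of a call says little.

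Sensors of other families numbered 15, of which 9 rose and 1 fell, with a median difference of 0.29. These were 60% and 6.67%, against 9.66% and 10.2% of all genes. The RNA helicase gene Dhx58 rose by 0.76, the nucleic acid sensor gene Zbp1 by 0.63 and the inflammasome genes Nlrc4 and Aim2 by 0.57 and 0.51. The inflammasome adaptor gene Pycard rose by 0.49. Sting1, the receptor for cyclic dinucleotides, rose from 12.30, 12.28 and 12.26 to 12.83, 12.78 and 12.82 (0.53 ± 0.04, SE; limma adjusted p = 1.4e-05). Cgas, the DNA sensor that makes the ligand of Sting1, was the 1 that fell (−0.24, to a mean of 6.97, under the lower quartile), named after its value was seen; it lost its call without wild-type replicates 1 or 2 or knockout replicate 3 (adjusted p from 0.059 to 0.064). Over the alternative settings 7 to 10 sensors were called higher. The count was 7 after genes below the median signal were removed, which left Nlrc4 and Pycard untested. With 1 array left out it was 8 to 9.

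Ly86 and several Toll-like receptors are also expressed by myeloid cells, and the marker genes of other blood cells were read on the same arrays. Of 15 measured markers of monocytes, macrophages and neutrophils, 1 rose and 0 fell, Lyz2 by 0.70 ± 0.06 (SE; limma adjusted p = 1.9e-05), from a mean of 9.03 to 9.73. The log2 of the list's summed signal was 11.93 to 11.98 in wild-type and 12.05 to 12.08 in knockout cells. Before the log2, the rise of Lyz2 alone was about as large as that of the sum. The median difference of the list was 0.010. Csf1r, Mpo, Itgam, Adgre1 and Ly6g had mean signals of at most 7.84 in wild-type and 7.86 in knockout cells and were not called. Other markers of the list were brighter and also not called. Their wild-type and knockout means were 9.48 and 9.29 (Cd68), 8.49 and 8.64 (Cd33), 8.34 and 8.26 (Cebpa), 8.25 and 8.26 (Tyrobp), and 8.09 and 8.13 (Elane). Fcgr1 was higher by 0.13 without overlap of the groups but was not called (limma adjusted p = 0.059). Of 8 dendritic cell markers, 1 rose (Flt3, 0.62), and the log2 summed signal was 10.65 to 10.69 in wild-type and 10.87 to 10.90 in knockout cells. Flt3 made up most of that rise, and the median difference of the dendritic list was 0.069. Of 8 T and NK cell markers and 6 mast cell markers, 0 were called by limma (2 and 0 had an unadjusted p under 0.05). The part of other cells in the differences was not tested.

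The genes around the 10 were read by their order along the chromosome in RefSeq, a description added after the data were seen. The 3 nearest measured protein-coding genes on each side gave 54 genes besides the 10 themselves, of which 4 rose and 5 fell (16.7%, against 19.8% of all genes). None of the 6 neighbours of Ly86 was called by limma (2 had an unadjusted p under 0.05), and their differences ran from −0.13 to 0.0077 beside the 4.31 of Ly86. Around Tlr9, the ERK phosphatase gene Dusp7 rose by 0.37 ± 0.05 (SE; limma adjusted p = 0.00037), while Alas1, the first enzyme of haem synthesis, fell by 0.18 (adjusted p = 0.029) and Ppm1m, a phosphatase gene, by 0.19 (adjusted p = 0.049). Around Cd180, the kinetochore gene Cenph fell by 0.35 and the zinc transporter gene Slc30a5 rose by 0.19. Near Tlr4, Megf9 fell by 0.22, and the immediate neighbours Trim32 and Brinp1 were not called.

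**Figure D4:**
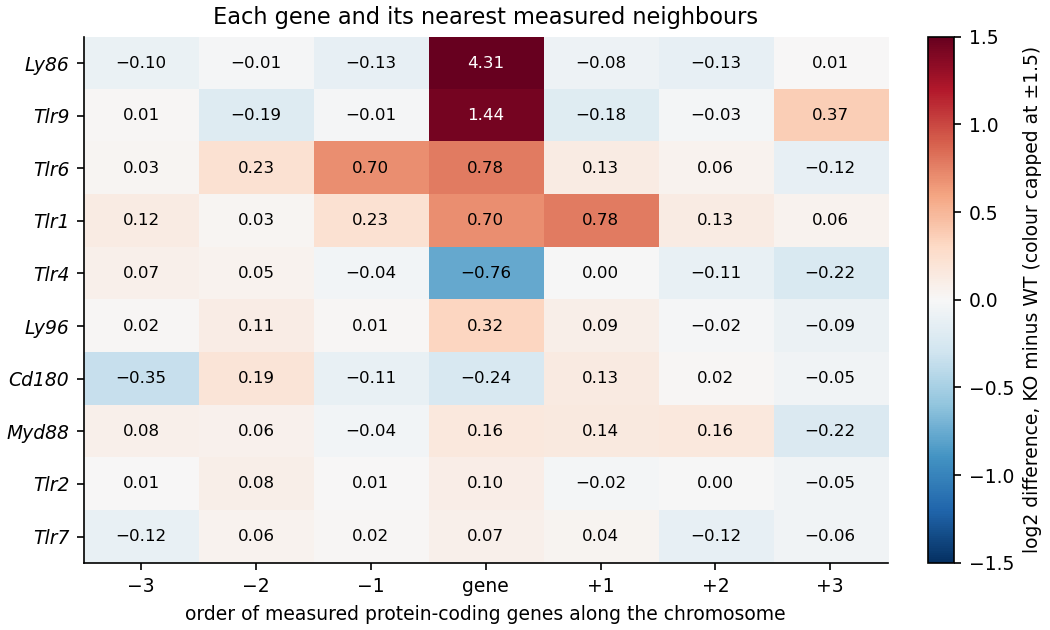
Log2 difference, knockout minus wild type (colour and printed value), of each of the 10 genes (middle column) and of the 3 nearest measured protein-coding genes on each side (columns −3 to +3, in chromosome order, not to distance). Tlr1 and Tlr6 are each other's neighbours at 0.70 and 0.78, and the neighbours of Ly86 lie between −0.13 and 0.0077.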

How the data were processed

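The table deposited by the authors holds 1 log2 signal per probe set and array, for 35556 probe sets and 6 arrays. The submitters' processing notes name RMA and Partek 6.5; neither their settings nor the genome build is stated there. Values ran from 3.23 to 14.8 and were used as deposited. Arrays have no read depth; their number limits the precision, with a standard error of 0.051 for the median gene. The platform annotation gave 1 symbol to 21789 probe sets, several to 1621 and none to 12146.

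All 19938 genes were fitted together in limma 3.58.1 (R 4.3.3) with lmFit and eBayes and a single genotype term, adjusted over all genes by Benjamini-Hochberg and called at an adjusted p under 0.05. The 10 genes and the lists were chosen with earlier results of these data known, so no p is given for the 10. Up to 6 called genes per list with the largest differences were named, or the 2 with the smallest p. Genes named as not called, marker genes that were not called and chromosomal neighbours were picked after their values were seen. Cgas, Sting1 and Adgre1 were matched from older symbols through RefSeq synonyms. The fit was tested on simulated data. Same-numbered arrays did not deviate together (correlations −0.12 to 0.053), so numbers were not taken as pairs.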

Additional observations from a re-analysis of the deposited data

How the results depend on the processing

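Over 14 alternative settings, no difference of the 10 genes changed sign or moved by more than the SD between replicates. Most of these settings could not have moved one that far. The filters, averaging probe sets, testing every probe set, the trend and robust options and the replicate block leave these differences unchanged. Leaving out 1 of 3 arrays shifts a difference by less than that SD whatever the values. Only repeated quantile normalization and median centring could have moved one further, and neither did. Ly86 and Tlr9 kept their calls in all 14, as did Tlr1, Tlr4 and Tlr6 wherever they were tested; filters on dim genes removed Tlr1 and Tlr7 (25th percentile and median) and Tlr4 and Tlr6 (median). Of the 10 genes, 4 to 5 were called higher and 1 to 2 lower with 1 array left out. The number called lower was 1 after genes below the median were removed, which leaves Tlr4 out, and 1 when every probe set was tested, where Cd180 was lost. Testing every probe set also left 4 genes of the lists that fell, 1 of them in the co-receptor list. It left 3 inducible genes that rose, and 1 that rose in each of the Cd180-partner and MD-2-family lists. With 1 array left out, 4 to 7 genes of the lists fell and 24 to 28 rose, sensors of other families included. With the replicate block, 5 of the 10 genes were called higher and 2 lower, and 30 genes of the lists rose and 7 fell. The share of all genes called under each alternative setting is not given here. These counts therefore show only which calls held, and cannot be set against all genes. Of the genes named, Myd88 and Vav2 lost their calls under the block; the arrays share only a number, and not every array correlated best with its own. Dusp6 stayed between −3.40 and −3.33. Mean signals below the lower quartile limit what can be read. Among the genes named, these were Tlr7, Tlr8, Tlr13, Cd14, Cd86, Il6, Adgre1 and Ly6g in both groups. Tlr1, Cd36 and Fam114a1 were below it in wild type, and Cgas in knockout.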

Other observations

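Likeness of pattern was measured as the root mean square difference of log2 values, each gene centred on its own mean over the 6 arrays. The genes nearest to Ly86 were Nt5e (0.28), Rgs18 (0.36), Lrrtm2 (0.49), AI506816 (0.49) and Hspb8 (0.51). Their differences ran from 3.30 to 5.25. The genes nearest to Tlr9 were Slc2a6, a glucose transporter gene (0.046), the Polycomb gene Cbx7 (0.060), the tumour suppressor gene Cdkn2a (0.064), the calponin gene Cnn2 (0.067) and Elovl7, a fatty acid elongase gene (0.070). Slc2a6 was higher by 1.47 and Elovl7 by 1.33, on either side of the 1.44 of Tlr9. With 6 arrays in 2 groups this measure mostly reads the size of the genotype difference.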
